A study of Homo sapiens with 4 samples.

Results

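Cancer-testis antigen genes were read in 2 human melanoma cell lines by their names. A gene belonged to the group when its name began with MAGEA, MAGEB, MAGEC, GAGE, PAGE, XAGE, CTAG, CSAG or SSX (SSX2IP excepted) or was PRAME, and 33 of the 17755 genes in the deposited expression table did. The data were RNA sequencing libraries from SK-MEL-28 and A375, each line transfected either with the control small interfering RNA siNC or with siLINC00622, which targets the long noncoding RNA LINC00622. All 4 cultures were kept for 6 h in serum-free medium with the transfection mix and then for 24 h in medium with serum, so both reagents shared the transfection and the serum change. Each of the 4 conditions was 1 library from 1 culture of 1 established line, hence a ratio of siLINC00622 over siNC within a line has no replicate check. The questions were which of these antigens each line expressed and how their levels with siLINC00622 compared with those with siNC.

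Cancer-testis antigens are proteins that healthy adults make mainly in male germ cells and that many tumors, melanoma among them, make again. Most of their genes lie on the X chromosome in families of recent copies, they are usually kept silent in other tissues by DNA methylation at their start regions, and peptides from their proteins can be shown to T cells. MAGE proteins of type I (the MAGEA, MAGEB and MAGEC families) share a domain that binds RING-type ubiquitin ligases, SSX proteins repress transcription, PRAME is a leucine-rich repeat protein that serves as a substrate receptor of a cullin ligase, and GAGE, PAGE and XAGE proteins are small and largely disordered.

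Of the 33 genes, 30 lay on chromosome X and 2 elsewhere (PRAME on chromosome 22 and CTAGE7P on chromosome 10) in the GENCODE 29 annotation of GRCh38, and MAGEA6-DT was not in that annotation. That annotation calls 29 of the 33 protein-coding. The other 4 fit the rule by their letters only: CSAG4 is a transcribed pseudogene, MAGEA4-AS1 an antisense RNA, MAGEA6-DT by its name a divergent transcript, and CTAGE7P a processed pseudogene of an unrelated family. The annotation holds 71 protein-coding names of these families, of which 42 were not analysed here. The lowest mean FPKM over the 4 libraries of any listed gene was 0.250005 (FPKM is fragments per kilobase of transcript, scaled to the library's size, a level per length and per sequenced fragment that allows genes to be compared).

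Several of these genes are recent duplicates, which bears on every value below. In the annotated transcripts, 100% of the distinct stretches of 150 bases, the read length, in SSX2 also occurred in SSX2B, and the same held for 100% of those of XAGE1A in XAGE1B. The share was 88.0% for MAGEA2 in MAGEA2B, 80.3% for CTAG1A in CTAG1B, 70.8% for CSAG2 in CSAG3, 27.1% for MAGEA3 in MAGEA6 and 18.6% for GAGE12J in GAGE2A. In the other direction it was 67.3% for SSX2B in SSX2, 76.3% for XAGE1B in XAGE1A and 77.9% for MAGEA2B in MAGEA2. Reads from such stretches fit either copy equally well, so counts of the single copies are uncertain, and sums of the copies are given beside the single values. Stretches were compared among the listed genes only. What they share with genes of these families that were not analysed here is not known, and the sums leave those genes out.

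The duplication extends upstream of the genes. The RefSeq start regions of 300 bases (250 before and 50 after a start, GRCh38.p14) were identical at 300 of 300 positions between SSX2 and SSX2B, and likewise for MAGEA3 with MAGEA6, MAGEA2 with MAGEA2B, XAGE1A with XAGE1B and GAGE12J with GAGE2A. The sequences upstream of 3 pairs are printed here: one pair whose single counts diverged (SSX2 and SSX2B), one whose levels were close in both lines (MAGEA3 and MAGEA6), and one whose members were each high in a different line (MAGEC1 and MAGEC2). Each stretch is written 5′ to 3′ on the gene's strand and ends before the outermost annotated start of its pair, and capitals mark CpG dinucleotides, the sites of DNA methylation. The 130 bases of SSX2 (chrX:52707299-52707428, minus strand) and of SSX2B (chrX:52751002-52751131, plus strand) are one sequence, as are the 192 bases of MAGEA3 (chrX:152698544-152698735, plus strand) and MAGEA6 (chrX:152769748-152769939, minus strand), while MAGEC1 (chrX:141903644-141903893, plus strand) and MAGEC2 (chrX:142205291-142205540, minus strand) have 250 bases each.
SSX2 and SSX2B: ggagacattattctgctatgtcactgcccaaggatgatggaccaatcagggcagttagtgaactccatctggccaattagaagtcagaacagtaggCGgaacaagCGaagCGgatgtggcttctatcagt
MAGEA3 and MAGEA6: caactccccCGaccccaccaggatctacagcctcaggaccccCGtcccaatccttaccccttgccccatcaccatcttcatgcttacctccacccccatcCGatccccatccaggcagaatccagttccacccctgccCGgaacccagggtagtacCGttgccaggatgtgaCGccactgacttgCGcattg
MAGEC1: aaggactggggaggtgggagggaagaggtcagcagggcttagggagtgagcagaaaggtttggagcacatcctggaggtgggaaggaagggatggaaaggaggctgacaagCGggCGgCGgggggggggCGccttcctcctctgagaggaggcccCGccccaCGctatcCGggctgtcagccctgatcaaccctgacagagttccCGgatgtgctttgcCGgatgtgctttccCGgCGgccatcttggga
MAGEC2: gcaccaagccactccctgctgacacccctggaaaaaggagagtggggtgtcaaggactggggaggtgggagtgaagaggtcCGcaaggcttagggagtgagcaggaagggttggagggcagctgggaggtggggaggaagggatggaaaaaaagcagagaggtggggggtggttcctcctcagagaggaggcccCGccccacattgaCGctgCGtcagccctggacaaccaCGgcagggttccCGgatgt

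The printed stretches held 3 CpG in the SSX2 pair, 7 in the MAGEA3 pair, 11 in MAGEC1 and 6 in MAGEC2. A local alignment of the MAGEC1 and MAGEC2 stretches covered 213 columns, 168 of them identical (78.9%), so these neighbours with opposite patterns in the lines share much of their upstream sequence. Among the 37 start regions found for 25 of the 33 genes, the number of CpG ranged from 2 to 24 with a median of 13, beside a median of 14 over all 35116 start regions. The letters CCGGAA, on either strand, occurred in 3 of the 37 (8.11%) and in 17.2% of all start regions. The letters CCGGAT, searched on both strands after the MAGEC1 stretch had been seen, occurred in 16 of the 37 (43.2%) and in 7.12% of all start regions, 3 times in the MAGEC1 stretch and 1 time in that of MAGEC2. A match describes these letters only, and since copies share a start region the 37 are not independent.

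The libraries held 31269923 to 36384819 counts (reads assigned to genes by the authors). The antigen genes took 0.107% (siNC) and 0.106% (siLINC00622) of all counts of SK-MEL-28 and 0.167% and 0.178% of those of A375. LINC00622 itself went from 309 to 135 counts between siNC and siLINC00622 for SK-MEL-28 and from 135 to 86 for A375, log2 ratios of -1.21 and -0.84, so both libraries labelled siLINC00622 held less of the target (adjusted p = 0.101 over both lines by edgeR's quasi-likelihood test). Of 8 melanocyte markers all were listed in the table, with a summed level of 2061 and 2210 FPKM in SK-MEL-28, against 133.2 and 166.1 FPKM in A375. In A375 the pigment cell genes PMEL (2.24 and 2.35 FPKM), MLANA (0.982 and 0.881 FPKM) and TYR (0.210 and 0.233 FPKM) were low, and SOX10, the neural crest factor, stood at 118.2 and 148.7 FPKM. None of the 4 leukocyte, 3 endothelial or 6 germ cell markers was among the listed genes, and 2 of 4 keratinocyte and 1 of 4 fibroblast markers were.

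With expression set at 1 FPKM or more, 12 of the 33 genes were expressed by SK-MEL-28 treated with siNC and 13 after siLINC00622, and A375 expressed 24 in each library. Over all listed genes the shares were 66.4% and 66.0% in SK-MEL-28, against 70.9% and 70.7% in A375. Both lines expressed 11 genes in all their libraries: PRAME, MAGEA1, MAGEA3, MAGEA4, MAGEA6, MAGEA6-DT, MAGEA12, CSAG1, CSAG3, CSAG4 and SSX2. A375 alone passed this level for 12 genes (MAGEA2, MAGEA2B, MAGEA10, MAGEA11, MAGEA4-AS1, MAGEC2, GAGE12J, GAGE2A, PAGE2, PAGE5, XAGE1A and XAGE1B), and SK-MEL-28 alone for 1 gene, MAGEC1. SSX2B was above the level in 3 of the 4 libraries, and 8 genes (CSAG2, CTAG1A, CTAG1B, CTAG2, CTAGE7P, MAGEB2, PAGE1 and XAGE2) were below it in all 4. In bulk RNA, fewer cells with a transcript and less of it per cell cannot be told apart.

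**Figure D1:**
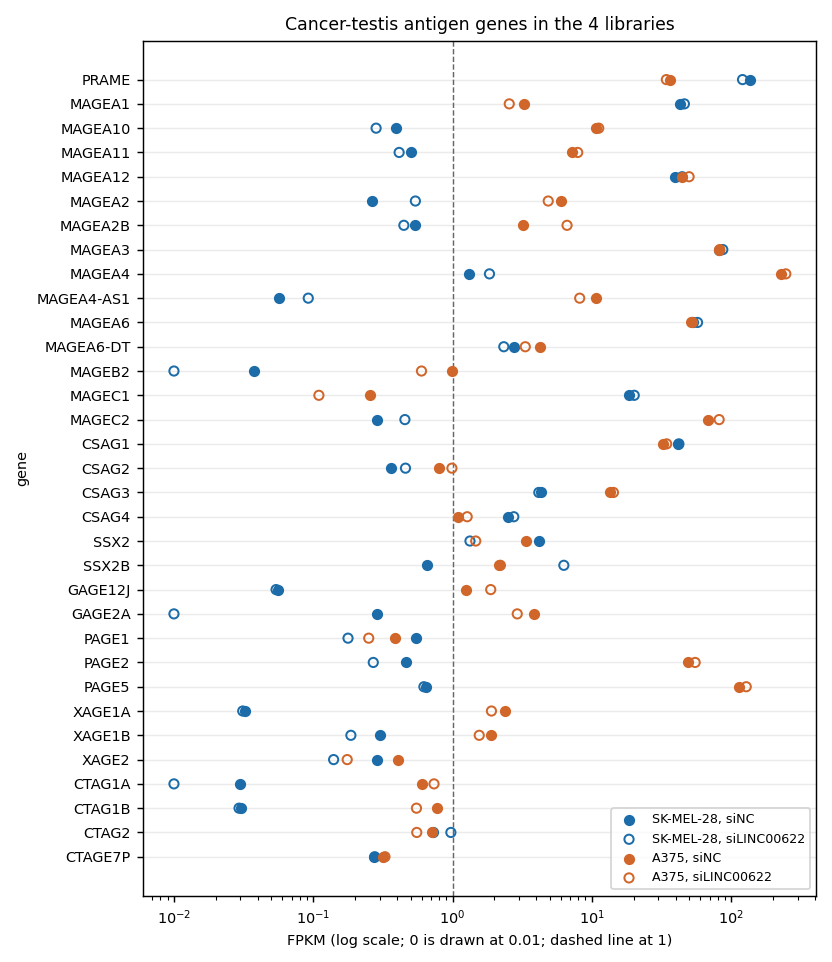
Level of each of the 33 genes (rows, by family) in FPKM on a log axis, 1 point per library: blue for SK-MEL-28, orange for A375, filled for siNC, open for siLINC00622, with a value of 0 drawn at 0.01 and a dashed line at 1 FPKM. The points of one line lie close together for most genes, while those of the 2 lines lie far apart for MAGEA4, MAGEC1, MAGEC2, PAGE2 and PAGE5 and together for MAGEA3, MAGEA6 and MAGEA12.

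The levels gave each line its own leading antigens. In SK-MEL-28, PRAME led with 136.2 FPKM (siNC) and 120.8 FPKM (siLINC00622) and took 48.4% and 43.4% of all antigen counts, followed by MAGEA3, MAGEA6 and MAGEA1. In A375, MAGEA4 led with 227.5 and 247.0 FPKM and took 46.0% and 46.7% of antigen counts, followed by PAGE5, MAGEA3 and MAGEC2. In the order of all 17755 genes by FPKM, PRAME was number 193 and 231 in the SK-MEL-28 libraries and MAGEA4 number 114 and 99 in those of A375, so the leading antigen of each line was among its most abundant transcripts.

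The lines were then compared by edgeR's quasi-likelihood test over 16742 genes, with the siRNA as a term, at an adjusted p under 0.05. Of the 32 antigen genes tested, 6 were higher in SK-MEL-28 (CSAG1, CSAG4, MAGEA1, MAGEA6, MAGEC1 and PRAME) and 18 were higher in A375 (CSAG2, CSAG3, CTAG1A, CTAG1B, GAGE12J, GAGE2A, MAGEA2, MAGEA2B, MAGEA4, MAGEA4-AS1, MAGEA10, MAGEA11, MAGEB2, MAGEC2, PAGE2, PAGE5, XAGE1A and XAGE1B), while 8 did not pass and XAGE2 had too few counts to be tested. Over all genes tested, 33.3% were higher in SK-MEL-28 and 34.4% higher in A375. With near-identical copies summed, the counts were 6 and 13. The test took genes with at least 10 counts in any of the 4 libraries. CTAG1A, CTAG1B, GAGE12J, GAGE2A, MAGEA4-AS1, MAGEB2 and XAGE1A had fewer in both SK-MEL-28 libraries and entered through A375 alone. The test could not have called these higher in SK-MEL-28, so their direction is no support for a difference. The libraries of one line differ in their siRNA, and the fit left 1 residual degree of freedom. That residual is how far the siRNA ratio differs between the lines. No culture was replicated, so these p-values do not measure the spread between cultures of a line. The calls of MAGEA6 and CSAG2 were lost without any one of the 4 libraries, and that of CSAG1 was lost without the siNC library of A375. The fits without a library also left out the siRNA term, and 1 line then had 1 library. The loss of a call therefore cannot be credited to the removed library alone. DESeq2's Wald test did not call MAGEA6, CSAG2 or CSAG4 (adjusted p = 0.0773, 0.499 and 0.125 by DESeq2).

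Among the MAGEA genes, MAGEA4 differed most between the lines. MAGEA4 (ENSG00000147381, chrX:151912509-151925170) had 147 and 212 counts in SK-MEL-28 (siNC, then siLINC00622, as in all pairs of values that follow) and 23975 and 30282 in A375. Its fitted log2 difference of SK-MEL-28 over A375 was -7.07 (SE 0.13, adjusted p = 1.9e-07 by edgeR), the groups being far apart. MAGEA4-AS1, the antisense RNA that overlaps MAGEA4 over 1460 bases on the other strand, had 3 and 5 counts in SK-MEL-28, against 529 and 473 in A375 (log2 difference -6.75, SE 0.29). Whether the authors counted by strand is not given in the sources used here, so reads of MAGEA4 and of its antisense RNA cannot be told apart where they overlap.

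MAGEA1, one of the antigens through which tumor recognition by T cells was found, went the other way. MAGEA1 (ENSG00000198681, chrX:153179285-153183880) stood at 43.2 and 46.2 FPKM in SK-MEL-28, against 3.25 and 2.55 FPKM in A375. Both libraries of SK-MEL-28 were above both of A375, with a log2 difference of 4.12 (SE 0.14, adjusted p = 1.0e-06 by edgeR). MAGEA10 (0.396 and 0.283 FPKM in SK-MEL-28, 10.8 and 11.2 FPKM in A375) and MAGEA11, a coactivator of the androgen receptor (0.505 and 0.414 FPKM against 7.23 and 7.92 FPKM), were higher in A375, with log2 differences of -4.85 (SE 0.19) and -3.87 (SE 0.18).

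MAGEA3, MAGEA6 and MAGEA12, close relatives at Xq28, were high in both lines at near equal levels. MAGEA3 (ENSG00000221867, chrX:152698752-152702347), which with MAGEA6 binds the ligase TRIM28, had 82.0 and 87.1 FPKM in SK-MEL-28, against 81.4 and 82.9 FPKM in A375. MAGEA6 had 53.1 and 57.4 FPKM against 52.1 and 52.0 FPKM, and MAGEA12 had 39.7 and 44.5 FPKM against 44.4 and 49.9 FPKM. The log2 difference of the lines was 0.21 (SE 0.09, adjusted p = 0.060 by edgeR) for MAGEA3, 0.25 (SE 0.09, adjusted p = 0.040 by edgeR) for MAGEA6 and 0.005 (SE 0.089, adjusted p = 0.964 by edgeR) for MAGEA12. With upper-quartile scaling, which moved the median difference of all genes by -0.11 (log2), MAGEA12 stood at -0.11 and MAGEA6 at 0.14 (adjusted p = 0.213 by edgeR). MAGEA3 took 59.5% and 59.1% of the summed counts of MAGEA3 and MAGEA6 in SK-MEL-28, against 59.8% and 60.3% in A375, a nearly constant split in all 4 libraries.

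MAGEA2 and MAGEA2B, which lie between MAGEA3 and MAGEA6 on the chromosome, did not share that pattern. Their summed counts were 63 and 79 in SK-MEL-28, against 671 and 987 in A375. The sum was higher in A375 by a log2 difference of -3.35 for SK-MEL-28 over A375 (SE 0.15, adjusted p = 2.7e-06 by edgeR), both libraries of A375 lying far above both of SK-MEL-28.

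The CSAG genes (chondrosarcoma-associated genes) lie head to head with MAGEA genes, and their levels were read against these partners. CSAG1 starts 43 bases from MAGEA12 on the opposite strand, and CSAG2 and CSAG3 each start 36 bases from MAGEA2B and MAGEA2. CSAG1 had 41.8 and 42.2 FPKM in SK-MEL-28, against 32.3 and 34.5 FPKM in A375 (log2 difference 0.50, SE 0.10), high in both lines as MAGEA12 was. However, CSAG1 was called higher in SK-MEL-28 and MAGEA12 was not called. CSAG2 and CSAG3 summed to 168 and 171 counts in SK-MEL-28, against 488 and 602 in A375 (log2 difference -1.50, SE 0.15, adjusted p = 0.00010 by edgeR). This sum was higher in A375, as that of MAGEA2 and MAGEA2B was, but by less (-1.50 against -3.35). In SK-MEL-28, CSAG3 had 4.32 and 4.16 FPKM, while MAGEA2 and MAGEA2B were below 1 FPKM. CSAG4 had 63 and 71 counts in SK-MEL-28, against 26 and 35 in A375 (log2 difference 1.31, SE 0.24). Its gene span overlaps that of MAGEA12 on the same strand over 3843 bases, while 0 of the 606 read-length stretches of its annotated transcripts lie in those of another listed antigen gene. MAGEA6-DT had 2.75 and 2.33 FPKM in SK-MEL-28, against 4.24 and 3.33 FPKM in A375 and did not pass (adjusted p = 0.114 by edgeR).

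MAGEC1 and MAGEC2, neighbours at Xq27 that encode type I MAGE proteins, were each high in one line. MAGEC1 (ENSG00000155495, chrX:141903894-141909388) had 2610 and 2931 counts in SK-MEL-28, against 34 and 17 in A375, a log2 difference of 6.93 (SE 0.25, adjusted p = 1.25e-06 by edgeR). MAGEC2 (ENSG00000046774, chrX:142202345-142205290), a partner of TRIM28, had 19 and 31 counts in SK-MEL-28, against 4238 and 5953 in A375, a log2 difference of -7.49 (SE 0.15, adjusted p = 2.3e-07 by edgeR). Their upstream sequences are those printed above, 78.9% identical where they align. MAGEB2, of the MAGEB family at Xp21, had 2 and 0 counts in SK-MEL-28, against 50 and 35 in A375 and was below 1 FPKM in every library.

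PRAME, the antigen gene off the X chromosome, was high in both lines. It (ENSG00000185686, chr22:22547701-22559361) had 136.2 and 120.8 FPKM in SK-MEL-28 against 36.5 and 34.3 FPKM in A375, a log2 difference of 2.03 (SE 0.08, adjusted p = 2.1e-06 by edgeR).

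Among the families of small disordered proteins, 2 PAGE genes were abundant in A375 and under 1 FPKM in SK-MEL-28. PAGE5 (ENSG00000158639, chrX:55220355-55224108) had 0.643 and 0.623 FPKM in SK-MEL-28, against 114.0 and 128.4 FPKM in A375 (log2 difference -7.40, SE 0.16), and PAGE2 had 0.464 and 0.270 FPKM against 48.8 and 55.2 FPKM (log2 difference -6.96, SE 0.23). The copies XAGE1A and XAGE1B summed to 15 and 10 counts in SK-MEL-28, against 153 and 145 in A375, and GAGE12J and GAGE2A to 6 and 1 counts against 84 and 93. Both sums were higher in A375 (adjusted p = 3.3e-05 and 0.00013 by edgeR), although at these counts the levels in A375 were only 1.24 to 3.82 FPKM for the single genes. The GAGE sum entered the test through A375 alone, so its direction is no support for a difference.

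CTAG1A and CTAG1B, which encode the antigen known as NY-ESO-1, were low in both lines. They summed to 2 and 1 counts in SK-MEL-28, against 43 and 47 in A375. With siNC the log2 ratio of SK-MEL-28 over A375 was -3.42 (counting interval -7.42 to -2.39), and no single copy reached 1 FPKM. CTAG2, CTAGE7P, PAGE1 and XAGE2 had 3 to 33 counts in every library, and the first 3 of these were tested and not called.

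SSX2 (ENSG00000241476, chrX:52696896-52707189) and SSX2B (ENSG00000268447, chrX:52751132-52790305), copies of a transcriptional repressor gene known from its fusion with SS18 in synovial sarcoma, summed to 263 and 555 counts in SK-MEL-28, against 316 and 263 in A375. The summed log2 difference of the lines was 0.59 (SE 0.33) and did not pass (adjusted p = 0.143 by edgeR), the library of SK-MEL-28 with siLINC00622 lying above the other 3.

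**Figure D2:**
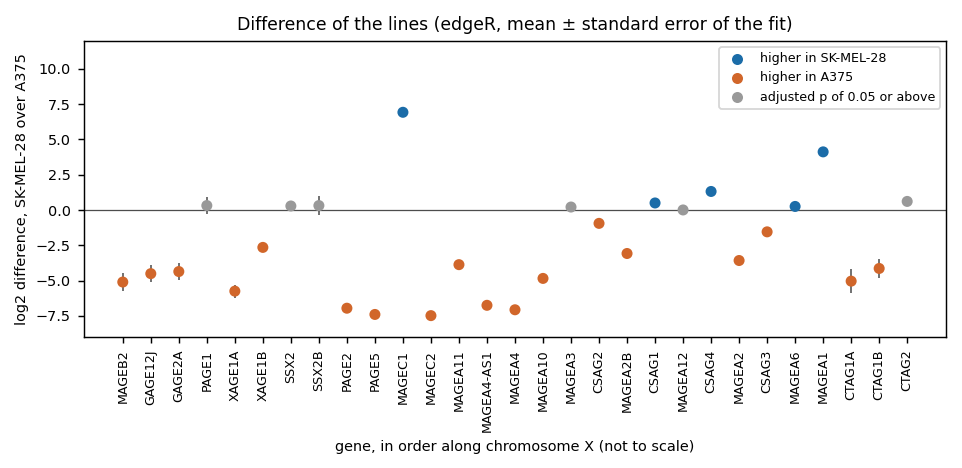
Fitted log2 difference of SK-MEL-28 over A375 (vertical axis, points with ± 1 standard error) for the antigen genes of chromosome X in their order along it, blue where higher in SK-MEL-28, orange where higher in A375 and gray where the adjusted p was 0.05 or above. MAGEC1 (6.93) and MAGEC2 (-7.49) stand side by side with opposite signs, and MAGEA2 and MAGEA2B lie below 0 between MAGEA3 and MAGEA6, which lie near 0.

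The ratios of siLINC00622 over siNC within each line were taken from scaled counts, for genes with at least 10 counts in one of the line's 2 libraries. Their intervals are 95% Clopper-Pearson intervals of the counts and cover counting error only, not the spread between cultures. In SK-MEL-28, 25 antigen genes had enough counts, of which 3 were over 1.5-fold higher (MAGEA2, MAGEC2 and SSX2B) and 3 over 1.5-fold lower (PAGE1, PAGE2 and SSX2), beside 4.56% of all genes higher and 6.49% lower. In A375, 31 had enough counts, of which 1 was higher (MAGEA2B) and 3 were lower (MAGEB2, MAGEC1 and SSX2), beside 4.52% and 4.34% of all genes. The median log2 ratio was 0.03 over the 25 genes and 0.04 over the 31, with medians of -0.004 and 0.004 over all genes, so most antigen genes lay within 1.5-fold in both lines.

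Most of the genes past 1.5-fold had few counts or a near-identical copy. In SK-MEL-28, MAGEC2 had 19 and 31 counts, PAGE1 had 12 and 4, and PAGE2 had 10 and 6, and the counting intervals of all 3 log2 ratios held 0 (-0.19 to 1.58, -3.71 to 0.11 and -2.51 to 0.83). In A375, MAGEC1 had 34 and 17 counts (log2 ratio -1.11, -2.14 to -0.33) and MAGEB2 had 50 and 35 (-0.69, -1.39 to -0.07), both at under 1 FPKM. The remaining calls were all of SSX2, SSX2B, MAGEA2 and MAGEA2B.

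The ratios of SSX2 and SSX2B had opposite signs in SK-MEL-28. SSX2 had 214 counts (siNC) and 70 counts (siLINC00622), a log2 ratio of -1.62 (counting interval -2.05 to -1.25), while SSX2B had 49 and 485, a log2 ratio of 3.22 (2.85 to 3.73). Among the 15442 genes with enough counts in SK-MEL-28, no log2 ratio was above that of SSX2B. In A375, SSX2 had 163 and 82 counts (-1.18, -1.60 to -0.81) and SSX2B had 153 and 181 (0.03, -0.29 to 0.35). SSX2 took 81.4% and 12.6% of the pair's counts in SK-MEL-28, against 51.6% and 31.2% in A375, so its share was lower with siLINC00622 in both lines.

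Summed, the pair stood 2.06-fold higher with siLINC00622 in SK-MEL-28 (log2 ratio 1.04, counting interval 0.83 to 1.26) and at 0.721 of the siNC level in A375 (log2 ratio -0.47, -0.72 to -0.23). The summed pair thus had opposite signs in the 2 lines, and the difference between the lines was not tested, since each ratio rests on 1 library per condition. Of the read-length stretches, 100% of those of SSX2 lie in SSX2B and 67.3% of those of SSX2B lie in SSX2. The split between the copies was therefore not read as a change of either gene.

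MAGEA2 and MAGEA2B gave a second example. In A375, MAGEA2 had 427 and 402 counts (log2 ratio -0.30, -0.50 to -0.10) and MAGEA2B had 244 and 585 (1.05, 0.83 to 1.27), and MAGEA2 took 63.6% and 40.7% of their sum. In SK-MEL-28, MAGEA2 had 20 and 42 counts (0.97, 0.24 to 1.89) and MAGEA2B had 43 and 37 (-0.24, -0.92 to 0.42). Summed, the log2 ratios were 0.29 for SK-MEL-28 (-0.20 to 0.80) and 0.35 for A375 (0.20 to 0.49), under 1.5-fold in both lines.

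**Figure D3:**
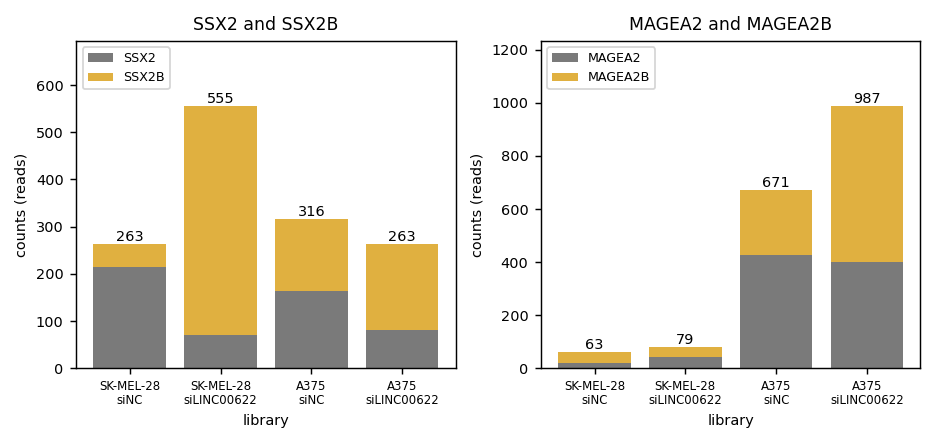
Counts per library of SSX2 (gray) with SSX2B (yellow) stacked on it, left, and of MAGEA2 with MAGEA2B, right, with the sum above each bar. The SSX sum was 555 in SK-MEL-28 with siLINC00622 and 263 to 316 in the other libraries, and the SSX2 part of the bar is the smaller one in both libraries with siLINC00622.

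The other summed copies with at least 10 counts lay within 1.5-fold of 1. For CSAG2 with CSAG3 the log2 ratios were -0.01 (-0.32 to 0.31, SK-MEL-28) and 0.09 (-0.08 to 0.27, A375), and MAGEA3 with MAGEA6 had 0.11 (0.07 to 0.16) and 0.02 (-0.02 to 0.07). XAGE1A with XAGE1B had -0.53 in SK-MEL-28 (-1.93 to 0.63), on 15 and 10 counts, and -0.28 in A375 (-0.62 to 0.05). In A375, GAGE12J with GAGE2A had -0.06 (-0.50 to 0.38) and CTAG1A with CTAG1B had -0.08 (-0.71 to 0.55). The intervals of these last 3 pairs held 0.

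The abundant antigens, those that reached 1000 counts in either library of the line, had the ratios with the narrowest counting intervals. In SK-MEL-28 the 7 such genes ranged from -0.16 (PRAME, counting interval -0.19 to -0.13) to 0.18 (MAGEA12, 0.10 to 0.26). In A375 the 10 such genes ranged from -0.08 (PRAME, -0.14 to -0.02) to 0.28 (MAGEC2, 0.22 to 0.34). MAGEA4, the leading antigen of A375, had a log2 ratio of 0.13 there (0.10 to 0.15), and MAGEA1 had 0.11 (0.03 to 0.19) in SK-MEL-28 and -0.34 (-0.66 to -0.02) in A375, where it had 174 and 159 counts.

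**Figure D4:**
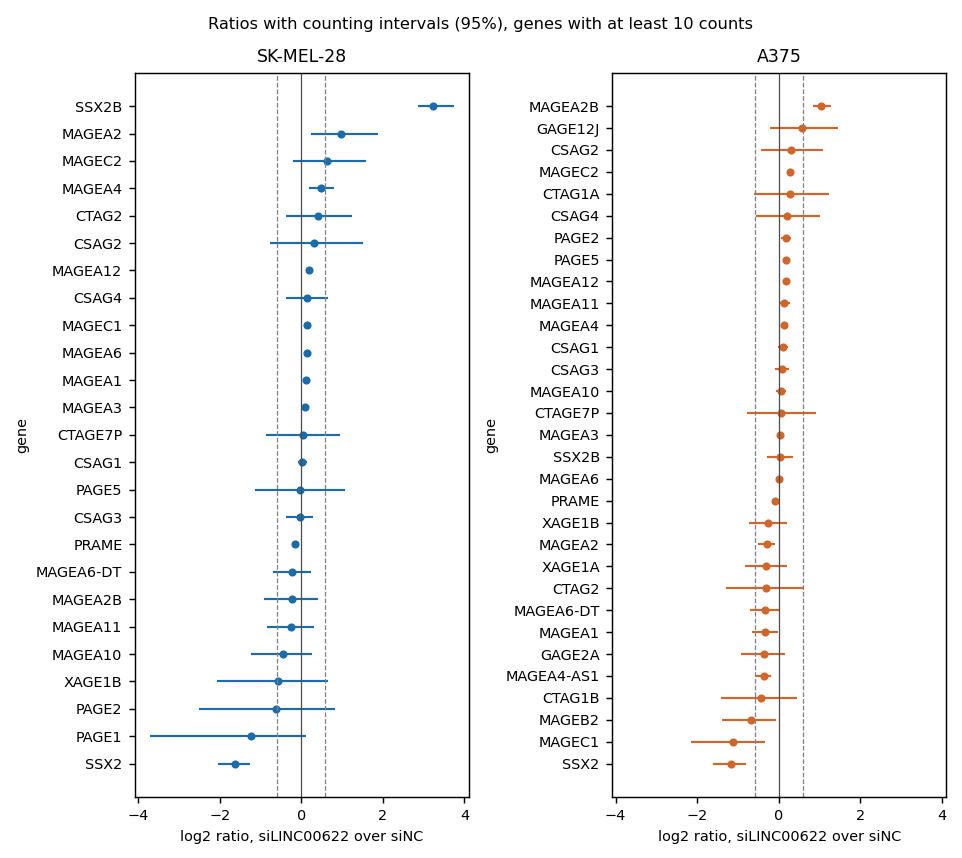
Log2 ratio of siLINC00622 over siNC in SK-MEL-28 (left, 25 genes) and A375 (right, 31 genes), each point with its 95% counting interval, sorted within the line, with dashed lines at 1.5-fold. SSX2B (3.22) stands alone on the right in SK-MEL-28, SSX2 is lowest in both lines, and the abundant genes lie close to 0.

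As a second view, edgeR's exact test was run on the 2 libraries of each line at an assumed dispersion of 0.1, which compares these libraries and not the conditions. A gene was called here at an unadjusted p under 0.05 and a change over 1.5-fold. In SK-MEL-28 it called SSX2B higher and SSX2 lower, beside 0.22% of all genes higher and 0.389% lower. Both are calls of single copies, whose counts are uncertain. In A375 it called 0 antigen genes, beside 0.163% higher and 0.141% lower.

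Over both lines, edgeR's quasi-likelihood test of siLINC00622 over siNC with the line as a term called 0 of 32 antigen genes at an adjusted p under 0.05, beside 0.197% of all genes higher and 0.251% lower. At an unadjusted p under 0.05 it had 2 higher (MAGEA4 and MAGEC2) and 1 lower (SSX2), and DESeq2's Wald test called 0 at an adjusted p under 0.05, with the adjusted p of 20 of the 32 left as NA. For counts at an unadjusted p and for calls by DESeq2, the share of all genes is not given, here or below. Such counts therefore cannot be set against a background. SSX2 was nearest to the threshold with a log2 effect of -1.41 (SE 0.21, adjusted p = 0.059 by edgeR), and it passed when genes with low counts were kept in (adjusted p = 0.037 by edgeR). The summed pair SSX2 and SSX2B had a log2 effect of 0.31 (SE 0.32, adjusted p = 0.721 by edgeR), without the sign of SSX2.

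Genes that silence or assist these antigens were read from a list of their regulators. Of 28 regulators of DNA methylation and chromatin, 8 were higher in SK-MEL-28 and 11 in A375, beside 33.3% and 34.4% of all genes tested (median log2 difference -0.04, and -0.04 over all genes). UHRF1, which brings the maintenance methyltransferase DNMT1 to newly copied DNA, had 16.7 and 8.95 FPKM in SK-MEL-28, against 48.9 and 29.1 FPKM in A375. It was higher in A375 (log2 difference -1.46, SE 0.09, adjusted p = 1.5e-05 by edgeR). It was also the only gene of the 28 that edgeR called over both lines at an adjusted p under 0.05 (log2 effect -0.80, adjusted p = 0.040 by edgeR). DESeq2 called IDH1, TET3 and UHRF1. The log2 ratios of UHRF1 within the lines were -0.88 (SK-MEL-28) and -0.74 (A375). At an unadjusted p under 0.05, edgeR had 13 of the 28 and DESeq2 had 8, so UHRF1 was not the only one. No share of all genes is given for these counts or for the calls by DESeq2, so they cannot be set against a background. DNMT1 had 21.8 and 17.2 FPKM in SK-MEL-28, against 34.3 and 28.0 FPKM in A375 (log2 effect over both lines -0.30, adjusted p = 0.163 by edgeR). DNMT3B, a methyltransferase that sets new marks, was higher in A375 (log2 difference -1.22, SE 0.16). DNMT3A, of the same list, went the other way and was higher in SK-MEL-28 (log2 difference 0.86, SE 0.13). Whether UHRF1 bore on the antigen genes was not tested.

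Of 5 factors named for antigen promoters, MYC was higher in SK-MEL-28 (log2 difference 3.49, SE 0.11) and CTCF and SP1 were higher in A375. Over both lines edgeR called 0 of the 5 (1 at an unadjusted p under 0.05) and DESeq2 called 1, ETS1, whose log2 ratios were -0.69 and -0.42. Of 14 ligases and partners of MAGE, PRAME and SSX proteins, 2 were higher in SK-MEL-28 (RBX1 and RNF8) and 9 in A375, beside the same 33.3% and 34.4% of all genes. Over both lines edgeR and DESeq2 called 0 of the 14 (2 and 0 at an unadjusted p under 0.05). TRIM28, the partner of MAGEA3, MAGEA6 and MAGEC2, had 125.5 and 113.8 FPKM in SK-MEL-28, against 212.3 and 171.8 FPKM in A375 (log2 difference -0.51, SE 0.08), an abundant transcript in both lines.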

How the data were processed

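RNA from 1 culture of each of 4 conditions (SK-MEL-28 or A375 with siNC or siLINC00622) was sequenced as paired reads of 150 bases after poly(A) selection. The authors deposited 1 table with raw counts, CPM (counts scaled to the library total) and FPKM for each gene and library, and 4 columns of TPM values were not used. HISAT2, HISAT, TopHat2 and Bowtie2 and the build hg19 are named in the submitters' processing notes, and the counting program and annotation are not given in the sources used here. Of the 17535 Ensembl identifiers in the table, 17332 are in GENCODE 29 (GRCh38), from which positions were taken. The other 220 genes carry other identifiers.

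Samples were grouped by the labels. The antigen genes, lists and tests were chosen with earlier results of these data known. Ratios within a line were log2 ratios of counts scaled by TMM with a prior count of 2, with 95% Clopper-Pearson intervals for counting error. The lines and the siRNA were tested across all genes with edgeR 4.0.16 (quasi-likelihood, Benjamini-Hochberg adjustment, 1 residual degree of freedom), with DESeq2 1.42.0 and limma 3.58.1 as alternatives, in R 4.3.3 and Python 3.11.15. In simulated counts for 17755 genes at a dispersion of 0.01, the test of the lines recovered 98 of 100 genes planted at a log2 difference of 1 and 100 of 100 at 2, and called 8 unchanged genes. The test over both lines recovered 100 and 100 and called 9. Planted genes had at least 50 expected counts, and planted siRNA effects were the same in both lines. The recovery need not hold for these data, where LINC00622 itself did not pass (log2 effect -1.05, adjusted p = 0.101 by edgeR). It therefore does not show that antigen genes that were not called were unchanged. Named genes were those with at least 50 counts in a library, all copies of summed sets, and from the other lists at most 10 called genes by size. Genes named beyond that were chosen after their values were seen.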

Additional observations from a re-analysis of the deposited data

Results flagged for a closer look

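For 4 genes or sums the 95% counting intervals of the ratio lay on opposite sides of 0 in the 2 lines, with 1 library per condition, and none of these differences was tested. Genes with opposite signs whose interval held 0 in either line are not listed. The log2 ratio of siLINC00622 over siNC for MAGEA1 was 0.11 (SK-MEL-28) and -0.34 (A375). It was 0.97 and -0.30 for MAGEA2. The sum of MAGEA2 with its copy MAGEA2B had 0.29 in SK-MEL-28, where the counting interval held 0 (-0.20 to 0.80), and 0.35 in A375 (0.20 to 0.49). For MAGEC1 it was 0.14 and -1.11, the value of A375 resting on 34 and 17 counts. For SSX2 and SSX2B summed it was 1.04 and -0.47.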

How the results depend on the processing

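The labels carry no replicate numbers, and the line term paired the libraries in the test over both lines. Under an alternative, 333 of 336 single ratios and 63 of 64 summed ratios stayed inside the counting interval of the value given, which is wide for low genes. The sign and the side of the threshold stayed for 262 of 287 line differences and 71 of 76 effects over both lines. The summed SSX2 and SSX2B ratio in SK-MEL-28 was 0.56 on log2(FPKM + 1). Genes past 1.5-fold in SK-MEL-28 numbered 1 higher and 1 lower at 50 counts or by the exact test, 7 lower with no filter, and 1 lower where the counting interval had to exclude 0. In A375 they numbered 0 higher with copies summed, 2 higher with a prior count of 0.5, and 0 higher and 0 lower by the exact test. The fits without one library also left out the siRNA term and had 1 library in a line, so numbers of calls from them are not given. The line difference changed sign for MAGEA12 with upper-quartile scaling (-0.11), limma (-0.16), and without the SK-MEL-28 siLINC00622 (-0.10) or A375 siNC library (-0.09), its range without one library ending at 0.11. It did so for SSX2 without the SK-MEL-28 siNC (-0.66) or A375 siLINC00622 library (-0.12, and up to 1.06), and for SSX2B without the SK-MEL-28 siLINC00622 library (-1.58, and up to 1.71). Over both lines, 1 gene (SSX2) passed as lower with no filter, and without the line term the signs of MAGEA10 (0.067), MAGEC1 (0.13), MAGEA1 (0.085) and MAGEA2 (-0.18) turned. At 5 FPKM, 7 and 8 genes of SK-MEL-28 counted as expressed, against 14 and 14 in A375 (siNC, siLINC00622). The cause of these changes was not tested. Except for the exact test, the share of all genes under these settings is not given. The numbers of antigen genes under them therefore cannot be set against a background. With 8 of the 33 genes under 50 counts in every library, counting error limits their ratios.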

Other observations

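Of 29 other cancer-testis genes tested, 7 were higher in SK-MEL-28 and 14 in A375, beside 33.3% and 34.4% of all genes tested. SPA17, SAGE1, CT83, SPANXB1, SPANXD, CT45A5 and CT45A10 had under 10 counts in both SK-MEL-28 libraries and entered the test through A375 alone. Their direction is no support for a difference. PASD1 had 1735 and 2128 counts in SK-MEL-28 (siNC, then siLINC00622), against 1 and 10 in A375. LY6K, which encodes a surface protein of the Ly6 family, had 11 and 5 counts in SK-MEL-28, against 1337 and 1471 in A375 (log2 difference of SK-MEL-28 over A375 -7.26, SE 0.23), and SAGE1 had 4 and 5 against 535 and 672 (-6.85, SE 0.25). SPANXB1, of a family of sperm nuclear proteins, had 0 and 1 counts against 167 and 177, and CT45A10 had 1 and 2 against 215 and 191. TEX15, a meiotic gene, was higher in SK-MEL-28 (403 and 382 counts against 92 and 121, log2 difference 2.06, SE 0.18), as were ROPN1 and ROPN1B, which encode sperm flagellum proteins (1.99, SE 0.29, and 2.81, SE 0.26). With siLINC00622 over both lines, edgeR and DESeq2 called 0 of the 29 (8 and 4 at an unadjusted p under 0.05).

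MAGE genes of type II, which are expressed in many tissues, were higher in SK-MEL-28 where they were called, 4 of 8 with none higher in A375, beside 33.3% and 34.4% of all genes tested. MAGED2 had 101.0 and 99.3 FPKM in SK-MEL-28, against 11.4 and 14.1 FPKM in A375 (log2 difference 3.15, SE 0.11), and NDN had 41.6 and 40.8 FPKM against 4.19 and 4.82 FPKM (3.36, SE 0.12). MAGED1 (1.39, SE 0.12) and MAGEH1 (1.39, SE 0.18) were the other two. With siLINC00622 over both lines, edgeR and DESeq2 called 0 of the 8 (0 and 0 at an unadjusted p under 0.05).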
